A study of Glycine max with 12 samples.

Results

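The 2011 season of a field study of soybean (Glycine max) set plots left weedy against plots kept free of weeds, and both weedy libraries of that season were compared with both control libraries. These 4 of the series' 12 libraries were chosen by their season and treatment labels, not by any measured value. Each library held the newest trifoliate leaf, shorter than 2 cm, of no fewer than 8 pooled plants of cultivar AG1631 from 1 plot near Brookings, South Dakota, taken at the V3 stage on June 29, 2011. The weedy plots carried velvetleaf and sunflower at about 160 plants per square metre. The control plots were sprayed with glyphosate, s-metolachlor, sethoxydim and imazethapyr, so that weeds and herbicides differ together between the groups and cannot be told apart. Precipitation was given as 24.2 cm and temperature as 26.1 °C for every plot of the season. Each group held 1 plot with 76 cm rows and 1 with 18 cm rows, a spacing read from a label field on read files and therefore an inference. The label of the 18 cm weedy library calls its second read file corrupt, so the main groups of genes are also given for each row spacing.

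Weeds shade a young crop, enrich its light in far red and draw on the same water and nitrogen. Plants sense neighbours through phytochromes, and hormones such as auxin, gibberellin and jasmonate tie that signal to growth and to defence. Jasmonate is made from membrane fatty acids by lipoxygenases and allene oxide enzymes, and in soybean leaves it is known to raise protease inhibitors and vegetative storage proteins. In a leaf as young as these, dividing cells are giving way to cells that build chloroplasts and a cuticle.

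Values are log2 FPKM as deposited, on a scale where every library holds 1 common set of values, from 0.00 to 13.50 with a median of 3.22; the sources used here do not name the step that brought them to that scale. They are also silent on any constant added to FPKM ahead of taking logs, so the folds printed are differences of these values turned into ratios, and a fold of a gene near 0.00 is the least certain. Depth is unknown, and a shift shared by most genes cannot show on this scale. The highest scaled values in the leaf included Rubisco small subunit genes, such as Glyma19g06370 at 12.69 to 13.50. Several markers of other tissues or of certain cell types were low or missing from the entries used here. The meristem gene STM (Glyma17g01370) stood at 0.41 to 1.15 and the epidermal gene ATML1 (Glyma10g39720) at 0.35 to 1.01. KNAT1, the senescence gene SAG12, seed cruciferin and leghemoglobin had 0 matches. The phloem transporter SUC2 had 2 matches between 1.45 and 3.14. The 12 cellulose synthases of the secondary wall, which mark xylem, ranged from 0.34 to 5.50. Their median level was 2.43 to 3.62 per library, against 3.22 for all genes. Groups did not overlap for STM, ATML1 or either SUC2 match, and STM and ATML1 lay near the floor of the scale. Of all genes, 20.6% had groups that did not overlap with weedy higher and 27.0% with weedy lower. STM stood lower in the weedy leaves, by -0.46 in the 76 cm pair and -0.70 in the 18 cm pair, and ATML1 by -0.29 and -0.66. Both SUC2 matches stood higher, with medians of 0.84 and 0.35. The part of cell makeup in the leaf, cuticle and wall values given further on was not tested. In whole leaves, fewer cells of a type and less RNA per cell cannot be told apart.

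No single gene passed the test. Of 30433 genes tested with limma, 0 were called higher and 0 lower at an adjusted p of up to 0.05, and the smallest adjusted p was 0.180, which all 24 genes of lowest p on either side shared. At an unadjusted p under 0.05, 1827 genes were higher and 1826 lower in the weedy leaves. The median difference over all genes was -0.02 and the median standard error of a difference was 0.16. Standard errors come from the spread of the 8 libraries of 2010 and 2011 around their group means. With 2 libraries per group, and labels that name each as a separate plot, p-values measure the spread between plots. The 2 plots of a group also differ in row spacing, for which the main fit had no term, so that spread holds both. Differences below are therefore given as values that did not pass, and a gene is called apart when each weedy library differed from each control library by a stated amount in 1 direction.

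By that rule 53 genes (0.174%) stood higher and 42 (0.138%) stood lower by at least 1 on the log2 scale, which is a factor of 2. At a gap of 0.5 there were 431 higher (1.42%) and 359 lower (1.18%), and 6265 (20.6%) and 8230 (27.0%) had groups that did not overlap at all. The 53 higher genes differed by 1.07 to 4.09 and the 42 lower ones by -1.13 to -2.90. These counts rest on all 4 libraries: without the 18 cm weedy library 228 and 84 genes were apart by 1, and without the 18 cm control library 95 and 110, as fewer libraries must stand apart. Without the 76 cm control library they were 178 and 290, and without the 76 cm weedy library 217 and 125.

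Both row spacings shared a part of the differences. Weedy minus control in the 76 cm pair and in the 18 cm pair had a Pearson correlation of 0.398 across 30433 genes, which are not independent replicates, and 61.5% of genes had 1 sign in both pairs. The 18 cm pair spread more, with an SD of 0.434 against 0.338. Of the 6 pairings of the 4 libraries, those of the 18 cm control with a weedy library had the most genes differing by 1 or more, 3.50% and 3.43%. The share was 1.47% between both controls, 1.63% between both weedy libraries, and 1.68% and 1.93% between the 76 cm control and the weedy libraries. The weedy libraries, 1 of them with the corrupt read file, thus differed from each other about as much as the controls did.

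**Figure D1:**
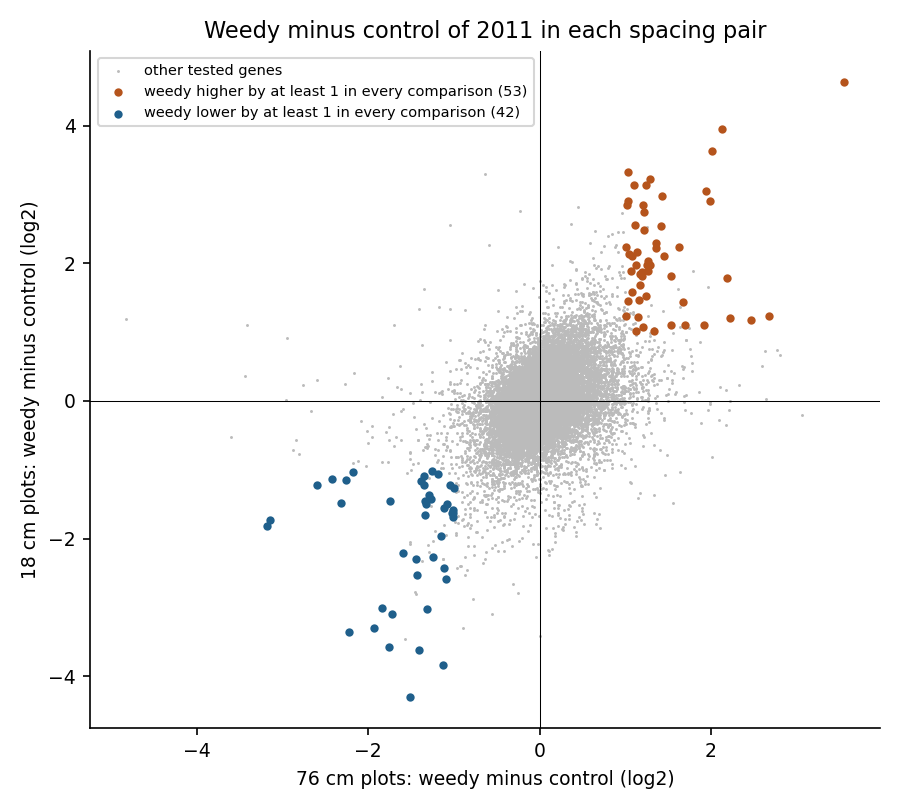
Weedy minus control of 2011 on the log2 scale for each of 30433 genes, in the 76 cm plots (horizontal axis) and the 18 cm plots (vertical axis). Coloured points are the 53 genes higher and the 42 genes lower by at least 1 in each weedy library than in each control library, and they lie away from 0 in both pairs.

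Groups of genes are described below by 36 lists drawn from names and descriptions in the deposited table, beside the same counts over all genes. Of all 30433 genes 14221 lay above 0 and 16210 below it. At a gap of 0.5, 1.42% were higher and 1.18% lower, and these shares apply wherever none is printed. Counts with 1 library left out can only stay or rise, as fewer libraries must stand apart. At a gap of 0.5 no such count was made over all genes. Families grouped by description, and genes named outside the rule for single genes given with the processing, were chosen after their values were seen. Names are those of the Arabidopsis or rice match, and because soybean carries many recent gene copies of near-identical sequence, reads may be split among copies of 1 name.

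Protease inhibitors and other inducible defence proteins stood lower in the weedy leaves. Of 30 inhibitors of proteases and polygalacturonases, 9 were lower by at least 0.5 and 1 was higher, against 1.18% and 1.42% of all genes, and 4 were lower by at least 1. The list's median difference was -0.13, with -0.08 in the 76 cm pair and -0.18 in the 18 cm pair, so the difference lay in some members. Without each library in turn between 9 and 12 members were lower by 0.5.

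The gene of smallest p among those lower was a Kunitz trypsin inhibitor, Glyma09g29360, a class of protein that blocks the digestive proteases of insects. It stood at 5.06 and 5.72 in the 76 cm and 18 cm controls and at 2.83 and 2.36 in the weedy libraries. Both weedy values lay more than 2 units under both controls, a difference of -2.79 ± 0.27 (SE, n = 2 libraries per group) or 6.92-fold lower, with an adjusted p of 0.180 (limma). A second Kunitz gene, Glyma16g33800, stood at 4.87 and 4.63 in controls and 3.54 and 2.97 in weedy leaves. Of 15 Kunitz genes in all, 12 lay below 0 and 10 had groups that did not overlap with weedy lower (66.7%, against 27.0% of all genes). By at least 0.5, 7 of the 15 were lower (46.7%, against 1.18% of all genes). Their median was -0.85 over the group means, -0.68 in the 76 cm pair and -0.58 in the 18 cm pair. The exception apart in the other direction was Glyma01g11640, at 2.59 and 1.72 in controls and 3.54 and 4.45 in weedy leaves.

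PGIP1 (Glyma15g26790) encodes an inhibitor of the polygalacturonases with which fungi break down pectin. Its controls stood at 4.95 and 5.39 and its weedy libraries at 3.12 and 2.38. The difference was -2.42 ± 0.26, or 5.37-fold lower (adjusted p 0.180, limma). The other of the 2 polygalacturonase-inhibiting genes lay above 0, with a difference of 0.44. A cystatin, Glyma14g04260, an inhibitor of cysteine proteases, was more abundant per transcript length, at 7.79 and 8.44 in controls and 6.35 and 6.15 in weedy leaves. Groups did not overlap for PGIP1 or for this cystatin. Of the 7 cystatins, that gene alone was apart by 0.5, and the median of the 7 was -0.11, with 0.02 in the 76 cm pair and -0.18 in the 18 cm pair.

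Jasmonate synthesis and response genes showed the same direction. Of 76 members 14 were lower by at least 0.5 (18.4%, against 1.18% of all genes) and 0 were higher, and the median was -0.18, close to equal in the pairs at -0.18 and -0.19. Without each library in turn, when the count can only stay or rise, 17 to 20 members were lower by 0.5. Lipoxygenases open the pathway by adding oxygen to linolenic acid. Of 15 genes described as lipoxygenase 1, 14 lay below 0, 13 had groups that did not overlap with weedy lower (27.0% of all genes did so), and 6 were lower by at least 0.5 (1.18% of all genes).

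Glyma08g20200, one of these lipoxygenases, stood at 3.49 and 4.87 in controls and at 1.77 in both weedy libraries. Glyma07g00900, another, stood at 6.74 and 7.14 in controls and 5.73 and 5.51 in weedy leaves, a difference of -1.32 ± 0.20 (adjusted p 0.185, limma). Both were apart by at least 1, the first by more in the 18 cm pair (-3.10) than in the 76 cm pair (-1.72). Allene oxide cyclase sets the stereochemistry of the jasmonate precursor, and AOC4 (Glyma18g51600) stood at 6.26 and 6.27 in controls against 5.10 and 5.30 in weedy leaves. OPR3 (Glyma13g16950), the peroxisomal reductase that follows, stood at 3.85 and 3.08 against 1.59 and 1.94. It alone in its family was lower by at least 0.5. Of 7 oxophytodienoate reductases 5 lay above 0, and the median was 0.12. Groups did not overlap with weedy higher in 3 (42.9%, against 20.6% of all genes) and with weedy lower in 2 (28.6%, against 27.0%). The 4 allene oxide synthases, which act between lipoxygenase and cyclase, had a median of 0.10.

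JAZ proteins repress jasmonate responses and are themselves induced by the hormone. Of 26 genes described as JAZ or TIFY proteins 18 lay below 0 and 5 were lower by at least 0.5 (19.2%, against 1.18% of all genes). The widest gap was in TIFY10B (Glyma01g41290), at 3.73 and 3.52 in controls and 2.38 and 2.43 in weedy leaves. The spread between plots of the other season enters the fit, and the difference was -1.22 ± 0.60.

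Vegetative storage proteins of soybean belong to the subfamily IIIB acid phosphatases, which hold nitrogen in leaves and respond to jasmonate. One of the most abundant messages of the control leaves, Glyma08g21410 of this family, stood at 11.66 and 12.08 there. In the weedy leaves it stood at 9.91 and 8.50, a difference of -2.67 ± 0.51 and 6.35-fold lower (adjusted p 0.191, limma). The weedy libraries differed from each other by more than the controls did, but neither came within 1 unit of a control. VSP1 (Glyma08g21390) stood at 8.27 and 8.88 in controls and 7.42 and 6.42 in weedy leaves. Of 16 genes of the family 13 lay below 0 and 2 were lower by at least 0.5 (12.5%, against 1.18% of all genes), with a median of -0.22. That median was 0.00 in the 76 cm pair and -0.38 in the 18 cm pair, whose weedy library has the corrupt read file. Another copy, Glyma08g21420, went the other way, at 7.38 and 6.92 in controls and 7.91 and 7.63 in weedy leaves.

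Among defence genes of other kinds, resistance genes and WRKY factors had 0 members apart by 0.5 and medians near that of all genes. Among 160 NBS-LRR resistance genes, the intracellular receptors of pathogen effectors, 0 were apart by 0.5 in either direction and the median was 0.07. Among 84 WRKY factors, which act in immunity, 0 were apart and the median was -0.06. Of 51 pathogenesis-related proteins 2 were higher and 2 lower by 0.5 (3.92% each, against 1.42% and 1.18% of all genes). Their median was 0.08, with 0.23 in the 76 cm pair and 0.03 in the 18 cm pair. Groups did not overlap with weedy higher in 20 (39.2%, against 20.6% of all genes) and with weedy lower in 5 (9.80%, against 27.0%). PR4 (Glyma03g40770), a chitin-binding protein, was among the genes of smallest p, with a mean of 2.02 in controls and 3.08 in weedy leaves and pair differences of 1.07 and 1.04.

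**Figure D2:**
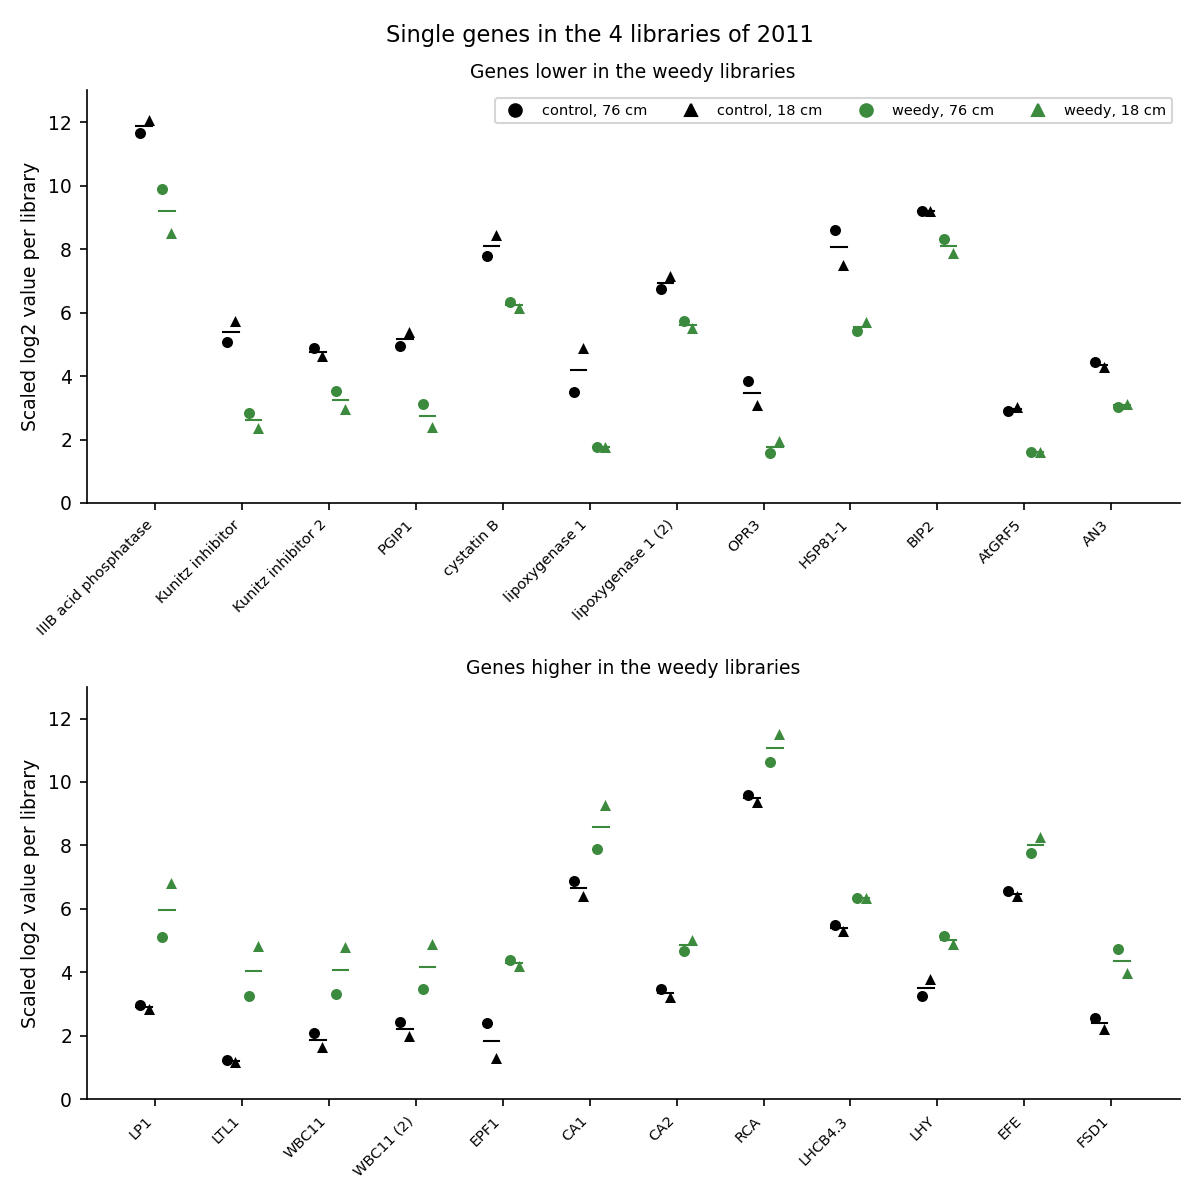
Scaled log2 value of 24 genes in each of the 4 libraries of 2011, controls in black and weedy in green, circles for 76 cm plots and triangles for 18 cm plots, with a line at each group mean. The upper panel shows 12 genes lower in both weedy libraries, such as the Kunitz inhibitor at 5.06 and 5.72 against 2.83 and 2.36, and the lower panel 12 genes higher in both, such as LP1 at 2.97 and 2.86 against 5.10 and 6.81.

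Molecular chaperones, which fold other proteins, were lower in the weedy leaves across several compartments of the cell. Of 43 genes for folding in the endoplasmic reticulum, where secreted and membrane proteins mature, 41 lay below 0, as 16210 of all 30433 genes did. By at least 0.5, 20 were lower (46.5%, against 1.18% of all genes) and 0 higher. The median was -0.59 over the group means, -0.54 in the 76 cm pair and -0.47 in the 18 cm pair, and 20 to 22 members were lower by 0.5 without each library in turn.

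BiP is the HSP70 of the endoplasmic reticulum and its most abundant chaperone. All 4 genes named BIP1 or BIP2 were lower by at least 0.5 (1.18% of all genes were), with a median of -1.03. BIP2 (Glyma08g02940) stood at 9.21 in both controls and at 8.31 and 7.88 in weedy leaves, a difference of -1.11 ± 0.23 (adjusted p 0.203, limma). Calreticulins and calnexins hold glycoproteins in the folding cycle, and of 10 such genes all lay below 0 and 7 were lower by at least 0.5. Disulfide isomerases form the bonds between cysteines. PDIL1-1 (Glyma04g42690) stood at 8.40 and 8.46 in controls and 7.59 and 7.30 in weedy leaves. By at least 0.5, 5 of 20 isomerase genes were lower (25.0%, against 1.18% of all genes). The family's median of -0.11 lay much closer to 0 than that of BiP.

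Heat shock proteins and factors followed. Of 173 members 132 lay below 0, 34 were lower by at least 0.5 (19.7%, against 1.18% of all genes) and 1 was higher. Their median was -0.43, with -0.44 in the 76 cm pair but -0.13 in the 18 cm pair. The count was 69 without the 18 cm control library, 52 without the 18 cm weedy library, 47 without the 76 cm weedy library and 43 without the 76 cm control library. The 18 cm control thus lay nearer to the weedy libraries for these genes than the 76 cm control did.

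HSP90 chaperones mature kinases and receptors. Of 15 HSP90 genes all lay below 0, 14 had groups that did not overlap (27.0% of all genes did so with weedy lower) and 9 were lower by at least 0.5 (1.18% of all genes), with medians of -0.71 in the 76 cm pair and -0.60 in the 18 cm pair. HSP81-1 (Glyma16g29750), a heat-inducible form, stood at 8.60 and 7.51 in controls and at 5.42 and 5.70 in weedy leaves, a difference of -2.50 ± 0.34 and 5.65-fold lower (adjusted p 0.180, limma). Both weedy values lay 1.81 or more under both controls. Small heat shock proteins hold unfolded proteins in solution, and their 74 genes had a median of -0.43, with -0.50 in the 76 cm pair and -0.16 in the 18 cm pair, and 10 were lower by at least 0.5 (13.5%, against 1.18%). The HSP20-like gene Glyma13g24480 stood at 4.16 and 2.64 in controls and at 1.02 and 0.91 in weedy leaves. HSP17.6II (Glyma14g11420) stood at 6.33 and 4.83 against 3.74 and 3.61.

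Some mitochondrial chaperones were among the genes of smallest p, a rule that favours genes with little spread between plots. HSP60 (Glyma10g33680), the mitochondrial chaperonin, stood at 7.27 and 7.41 in controls and 6.38 and 6.34 in weedy leaves, a difference of -0.98 ± 0.12 (adjusted p 0.180, limma). All 6 HSP60 genes had groups that did not overlap with weedy lower, as 27.0% of all genes did, and their median was -0.51, with -0.47 and -0.57 in the pairs. The mitochondrial HSP70 gene mtHSC70-2 (Glyma13g32790) stood at 6.23 and 6.17 against 5.21 and 5.25. An organellar HSP90, Glyma14g01100, stood at 6.18 and 6.41 against 5.34 and 5.32. Peptidyl-prolyl isomerases assist HSP90, and ROF1 (Glyma16g10730) stood at 6.44 and 6.45 against 5.70 in both weedy libraries.

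The heat shock factors that switch these genes on lay nearer to 0. Of 39 such genes 2 were lower by at least 0.5, and their median was -0.06. Of 198 DnaJ co-chaperones 7 were lower and 1 was higher, with a median of -0.01. ATJ2 (Glyma11g17930), the co-chaperone of smallest p, stood at 8.08 and 7.79 in controls and 6.77 and 7.11 in weedy leaves.

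Genes of the photosynthetic machinery stood higher in the weedy leaves. Of 134 photosystem and antenna genes all but 6 lay above 0, and 109 had groups that did not overlap with weedy higher (81.3%, against 20.6% of all genes). By at least 0.5, 17 were higher (12.7%, against 1.42% of all genes) and 0 lower. The median was 0.47, with 0.25 in the 76 cm pair and 0.72 in the 18 cm pair. Without the 76 cm control library 63 members were higher by 0.5, without the 76 cm weedy library 43, without the 18 cm weedy library 42, and without the 18 cm control library 17. The 18 cm control stood lowest of the 4 libraries for these genes, with a median level of 6.96 against 7.33, 8.00 and 7.76 in the 76 cm control, 76 cm weedy and 18 cm weedy libraries.

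Antenna proteins gather light for the photosystems. LHCB4.3 (Glyma18g03220), a minor antenna protein of photosystem II, stood at 5.48 and 5.30 in controls and 6.33 and 6.35 in weedy leaves, a difference of 0.95 ± 0.11 (adjusted p 0.180, limma). LHB1B1 (Glyma16g27990), of the major antenna, stood at 6.66 and 5.68 against 7.62 and 7.64. Of 44 antenna genes 42 lay above 0 and 9 were higher by at least 0.5 (20.5%, against 1.42% of all genes). Photosystem I subunit P (Glyma19g44990) stood at 6.04 and 5.58 in controls and 6.99 and 7.35 in weedy leaves. YCF37 (Glyma01g38940), a factor for photosystem I assembly, stood at 3.58 and 3.49 against 4.53 and 4.43, with pair differences of 0.95 and 0.94.

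The Calvin cycle list, which fixes carbon dioxide with that light energy, behaved alike. Of 32 members 28 lay above 0 and 7 were higher by at least 0.5 (21.9%, against 1.42% of all genes), 3 of them by at least 1. Its median was 0.47, with 0.29 in the 76 cm pair and 0.74 in the 18 cm pair, and the count was 7 to 15 without each library in turn. Carbonic anhydrase interconverts carbon dioxide and bicarbonate. CA2 (Glyma01g03720) stood at 3.48 and 3.23 in controls and 4.67 and 5.03 in weedy leaves, a difference of 1.50 ± 0.18 and 2.83-fold higher (adjusted p 0.180, limma). CA1 (Glyma05g08590) stood at 6.87 and 6.42 against 7.89 and 9.26, so that its 18 cm weedy library lay well above its 76 cm one. Of 9 carbonic anhydrase genes 8 had groups that did not overlap with weedy higher, against 20.6% of all genes.

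Rubisco activase frees the active site of Rubisco. The activase gene Glyma11g34230 stood at 9.59 and 9.37 in controls and 10.63 and 11.50 in weedy leaves, a difference of 1.58 ± 0.31, and 4 of 5 activase genes had groups that did not overlap with weedy higher (20.6% of all genes did so). The 3 Rubisco small subunits stood between 11.01 and 13.50, with differences of 0.16 to 0.67 and a median of 0.00 in the 76 cm pair and 0.81 in the 18 cm pair. One of them, Glyma13g07610, had groups that did not overlap. Chlorophyll synthesis differed between the spacings: its 36 genes had a median of 0.18, with -0.05 in the 76 cm pair and 0.37 in the 18 cm pair, and 1 was higher by 0.5. That gene, the magnesium chelatase subunit CHLH (Glyma03g29330), stood at 7.44 and 7.26 against 7.98 and 8.28.

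**Figure D3:**
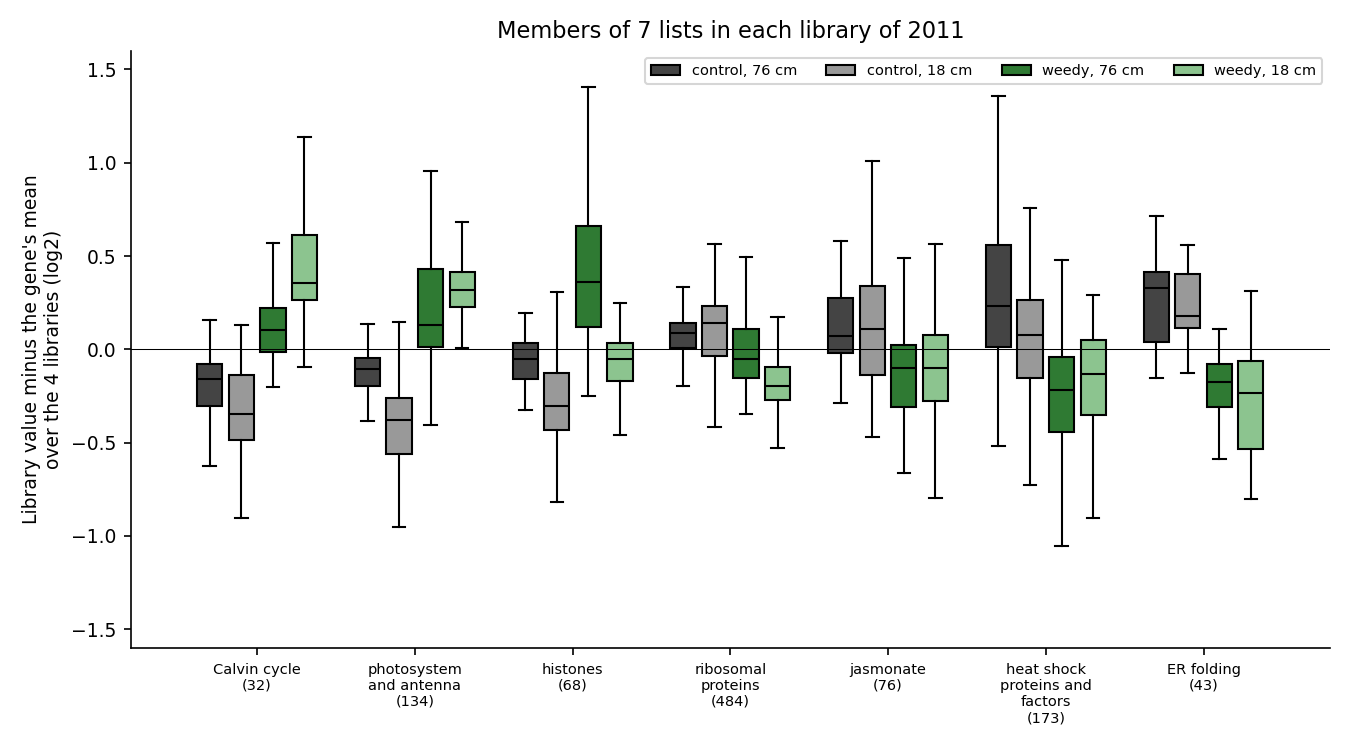
Members of 7 gene lists in each library of 2011, as the library's value minus the gene's mean over the 4 libraries (log2). Boxes span the quartiles with the median as a line, whiskers reach at most 1.5 times the box, points beyond are not drawn, and the number of genes is in brackets. Both weedy boxes of the photosystem and Calvin cycle lists lie above the control boxes and those of the ER folding list below, while histones are high in the 76 cm weedy library alone.

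Cuticle and surface genes held several of the largest differences. Lipid transfer proteins carry lipids through the cell wall. LP1 (Glyma03g04920) stood at 2.97 and 2.86 in controls and 5.10 and 6.81 in weedy leaves, a difference of 3.04 ± 0.53 and 8.23-fold higher (adjusted p 0.187, limma). LTL1 (Glyma19g43940), a GDSL lipase, stood at 1.23 and 1.19 against 3.24 and 4.82. WBC11 transporters export wax and cutin lipids, and the copies Glyma13g07990 and Glyma08g07550 differed by 2.19 ± 0.44 and 1.97 ± 0.43. The first stood at 2.09 and 1.66 against 3.32 and 4.80, and the second at 2.44 and 1.99 against 3.47 and 4.90. For all of these the 18 cm weedy library was the highest of the 4.

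The families as a whole were mixed. Of 58 lipid transfer and 2S albumin proteins 9 were higher by at least 0.5 (15.5%, against 1.42%) and 4 lower (6.90%, against 1.18%). The member of smallest p was a lower one, Glyma05g04490, at 3.06 and 2.92 in controls and 1.73 and 1.46 in weedy leaves. Of 8 WBC11-like genes 2 were higher and 1 was lower by at least 0.5. Among 40 wax and cutin synthesis genes 1, CER1 (Glyma07g14010), an enzyme of alkane formation, was higher by 0.5, at 2.92 and 3.18 against 3.86 and 4.05. EPF1 is a peptide that limits stomatal number. All 3 genes of that name were higher by at least 0.5, and Glyma12g32990 stood at 2.39 and 1.29 against 4.38 and 4.21.

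Clock genes of the morning stood higher. LHY is a transcription factor that peaks at dawn and represses evening genes, and its 4 copies were all higher by at least 0.5 with a median of 0.98. Glyma03g42260 stood at 3.24 and 3.79 in controls and 5.16 and 4.90 in weedy leaves, a difference of 1.51 ± 0.19 and 2.85-fold higher (adjusted p 0.180, limma). Glyma19g45030 stood at 2.35 and 2.49 against 3.69 and 3.51. RVE8, a relative of LHY that activates later genes, had 3 matches, all higher by at least 0.5. The gene of smallest p among those higher was 1 of them, Glyma13g19910, at 3.38 in both controls and 4.26 and 4.25 in weedy leaves.

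The evening genes TOC1 and GIGANTEA lay mostly below 0, while PRR genes gave no single direction. All 4 copies of TOC1, the evening repressor that opposes LHY, lay below 0 with a median of -0.33, and Glyma06g21120 stood at 2.84 and 3.02 against 2.34 and 2.36. None was apart by 0.5. The 3 GIGANTEA genes, 1 above 0 and 2 below, had a median of -0.16, with -0.33 in the 76 cm pair and 0.01 in the 18 cm pair. The 11 PRR genes, relatives of TOC1, had 7 members above 0. In 3 of them groups did not overlap with weedy higher (27.3%, near the 20.6% of all genes). Their medians were -0.22 in the 76 cm pair and 0.37 in the 18 cm pair. Of 78 clock and flowering genes 10 were higher by at least 0.5 (12.8%, against 1.42%) and 0 lower, while the median of the whole list was -0.08 in the 76 cm pair and 0.28 in the 18 cm pair. Without each library in turn 10 to 19 were higher. The labels give the day of sampling but no hour, so a part of the hour in these values was not tested.

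Light and shade signalling stood near the background, with 3 of 115 genes higher and 1 lower by 0.5 and a median of 0.02. PIL5 (Glyma03g32740), a phytochrome-interacting factor, stood at 1.85 and 1.79 in controls and 2.54 and 2.64 in weedy leaves. COP1 (Glyma14g05430), a ubiquitin ligase that degrades light-response factors in darkness, stood at 3.50 and 3.61 against 4.07 and 4.14.

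Hormone lists other than jasmonate had medians near 0, from -0.12 for cytokinin to 0.06 for gibberellin, with some genes apart in either direction. Ethylene-forming enzymes make the gas from its precursor, and their 6 copies split. Glyma02g43560 stood at 6.57 and 6.40 in controls and 7.76 and 8.27 in weedy leaves, 2.89-fold higher (adjusted p 0.187, limma), whereas Glyma07g39420 stood at 1.52 and 1.45 against 0.32 and 0.39. Of 50 ethylene genes 2 were higher and 1 was lower by at least 0.5. Of 241 auxin genes 7 were higher and 3 lower, with a median of 0.00. Of 31 gibberellin genes 5 were higher (16.1%, against 1.42% of all genes) and 2 lower (6.45%, against 1.18%). Gibberellin-regulated proteins are small cysteine-rich peptides, and members stood apart in both directions. Glyma03g28740 of this family stood at 5.06 and 3.52 in controls and 6.35 and 6.75 in weedy leaves, 4.79-fold higher (adjusted p 0.238, limma), while Glyma13g04530 stood at 3.61 and 4.12 against 2.89 and 2.22. Of 50 cytokinin genes 24 had groups that did not overlap with weedy lower (48.0%, against 27.0%) and 3 were lower by 0.5 (against 1.18% of all genes), among them CKX3 (Glyma13g16430), a cytokinin-degrading oxidase, at 1.80 and 1.94 against 0.85 and 0.63. Of 66 abscisate and drought genes 1 was higher, ERD4 (Glyma15g09820), at 4.04 and 3.99 against 4.68 and 5.23.

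Growth-regulating factors, transcription factors that keep leaf cells dividing, stood lower. All 20 such genes lay below 0, 18 had groups that did not overlap (27.0% of all genes did so with weedy lower) and 5 were lower by at least 0.5, with medians of -0.41 in the 76 cm pair and -0.59 in the 18 cm pair. AtGRF5 copy Glyma12g01730 stood at 2.89 and 3.04 in controls and at 1.62 in both weedy libraries. AN3 (Glyma20g36960), their coactivator, stood at 4.43 and 4.28 against 3.04 and 3.13, a difference of -1.27 ± 0.21 (adjusted p 0.187, limma). YABBY factors set the lower side of the leaf, and the AFO copy Glyma03g03500 stood at 6.02 and 6.18 against 5.24 and 4.96. Among 87 leaf growth regulators as a whole 7 were lower and 1 was higher by 0.5, with a median of -0.02, and the 40 TCP factors, some of which end division, had a median of 0.15.

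Genes of growth itself did not move as 1 block. Ribosomal proteins had a median of -0.22 over 484 genes, with -0.14 in the 76 cm pair and -0.34 in the 18 cm pair. Their groups did not overlap with weedy lower in 278 (57.4%, against 27.0% of all genes), and 4 were lower by 0.5 (0.826%, against 1.18%). Histones, which package new DNA, had a median of 0.37 over 68 genes, and 59 lay above 0. The 76 cm weedy library held most of that difference, with a median level of 7.24 against 6.77 in its control, while the 18 cm weedy and control libraries were at 6.74 and 6.62. Of 162 cell cycle genes 3 were higher and 1 was lower by 0.5, with a median of -0.03. CYCP2;1 (Glyma12g32200) stood at 2.65 and 2.42 in controls and 3.62 and 3.74 in weedy leaves.

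Secondary wall genes, which mark xylem, stood lower in part, and by more in the 18 cm pair. Their 30 genes had a median of -0.25, with -0.08 in the 76 cm pair and -0.49 in the 18 cm pair, and -0.59 among members with a mean log2 of at least 2. Without the 18 cm control library the median was -0.01. By at least 0.5, 4 of the 30 were lower (13.3%, against 1.18% of all genes) and 0 higher. IRX1 (Glyma08g12400), a cellulose synthase of the secondary wall, stood at 3.45 in the 76 cm control and 4.81 in the 18 cm control, and at 2.15 and 2.72 in the weedy libraries. Of 12 cellulose synthases of this class 9 lay below 0 and 1 was lower by 0.5, with medians of -0.41 in the 76 cm pair and -1.04 in the 18 cm pair. The part of vascular tissue in this or any other result was not tested. Of 71 wall extension genes 1 was higher and 1 lower by 0.5.

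Nutrient and stress enzymes gave single genes. Nitrite reductase turns nitrite into ammonium in the chloroplast. Both NIR1 genes were lower by at least 0.5, Glyma02g14910 at 4.42 and 3.91 in controls and 2.91 and 3.17 in weedy leaves and Glyma07g33570 at 3.96 and 3.47 against 2.74 and 2.77. The ammonium transporter AMT1;2 (Glyma10g31080) stood at 0.67 and 0.51 against 1.82 and 1.73, near the floor of the scale in controls. Of 37 nitrogen genes 1 was higher and 3 lower by 0.5. Arginase ARGAH2 (Glyma03g03270), which releases nitrogen from arginine, stood at 7.38 and 7.64 against 6.37 and 5.96. Sucrose synthase SuS1 (Glyma15g20180) stood at 4.27 and 4.35 against 3.24 and 3.13, while only 1 of 96 sugar and starch genes was higher and 2 were lower by 0.5.

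Most iron genes lay above 0. Of 40, 35 did so and 21 had groups that did not overlap with weedy higher (52.5%, against 20.6% of all genes), with a median of 0.27. By 0.5, 3 were higher (7.50%, against 1.42%) and 1 was lower (2.50%, against 1.18%), the metal transporter gene NRAMP3 (Glyma17g18010), at 3.50 and 3.51 against 2.37 and 2.90. Ferritin stores iron in plastids, and FER4 (Glyma11g35610) stood at 2.81 in both controls and 3.77 and 3.82 in weedy leaves, a difference of 0.99 ± 0.13 (adjusted p 0.180, limma). The iron superoxide dismutase FSD1 (Glyma20g33880), which removes superoxide in chloroplasts, stood at 2.56 and 2.21 against 4.75 and 3.99. It was the 1 antioxidant enzyme of 46 apart by 0.5, and the 5 iron superoxide dismutases, 3 of them below 0, had a median of -0.01.

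Detoxification genes and the targets of the herbicides were examined because the controls had been sprayed. Of 58 glutathione transferases, which conjugate herbicides and other electrophiles, 6 were lower in the weedy leaves by at least 0.5 (10.3%, against 1.18% of all genes) and 1 was higher. GSTU8 (Glyma07g16840) stood at 3.56 and 3.09 in controls and 2.07 and 2.17 in weedy leaves. Of 123 cytochrome P450 genes 7 were higher (5.69%, against 1.42%) and 1 lower, and of 132 UDP-glycosyltransferases 3 were higher (2.27%) and 0 lower. Of 40 genes for the enzymes that the 4 herbicides inhibit, 0 were apart by 0.5, and their median was 0.12. They comprised acetolactate synthase, EPSP synthase, acetyl-CoA carboxylase and 3-ketoacyl-CoA synthases. KCS19 (Glyma10g43800) had the smallest p of them, at 4.09 and 4.25 against 4.61 and 4.42. Next came ACC1 (Glyma04g11550), KCS6 (Glyma10g42100) and KCS11 (Glyma04g20620), with differences of 0.30 ± 0.13, 0.41 ± 0.19 and -0.39 ± 0.19 and the same sign in both pairs.

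**Figure D4:**
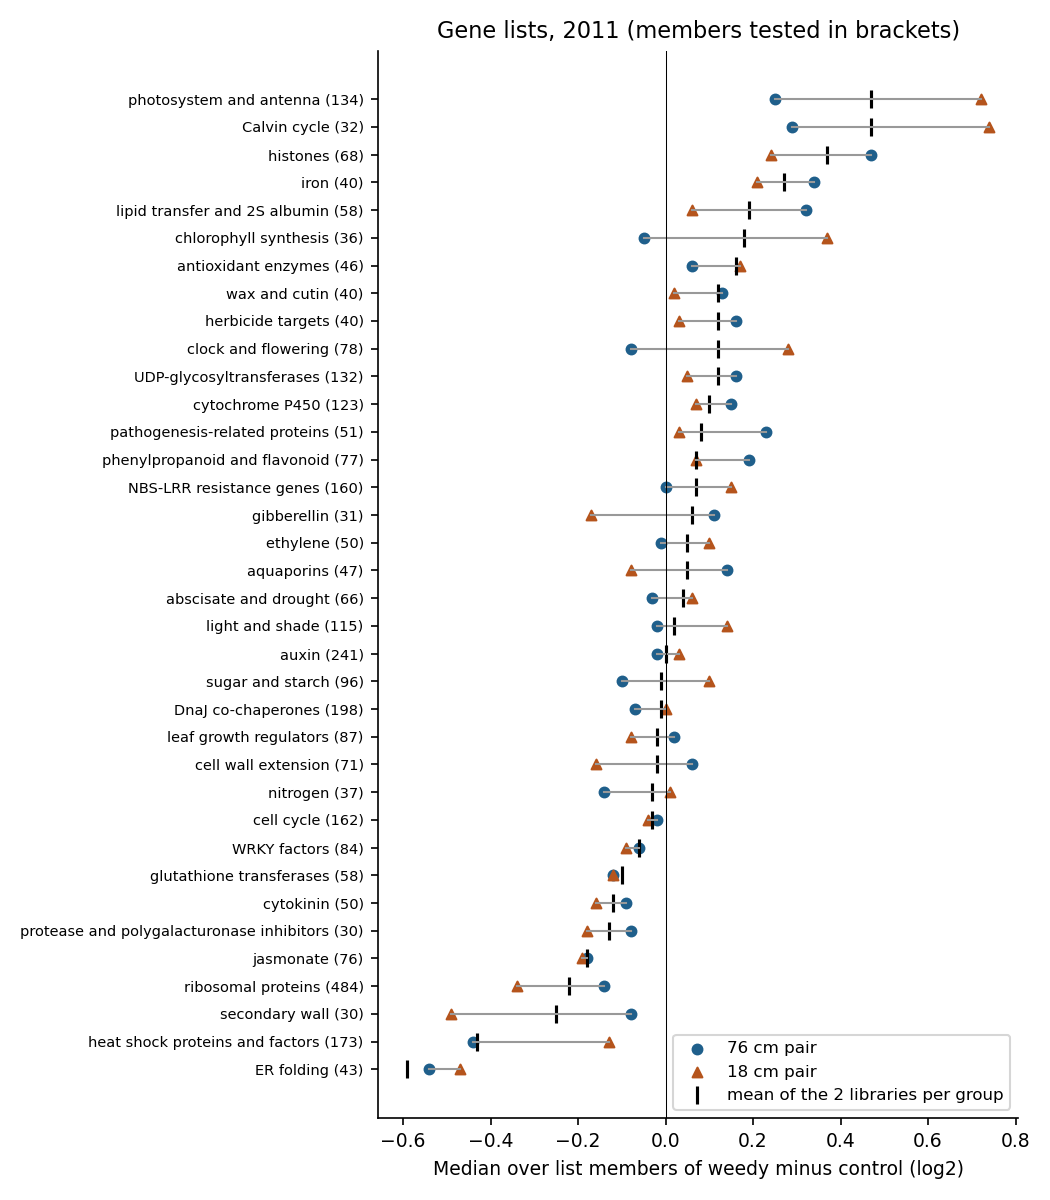
Median over the members of each of 36 gene lists of weedy minus control in 2011 (log2), for the 76 cm pair (circles), the 18 cm pair (triangles) and the group means (bars). Photosystem, Calvin cycle, histone and iron lists lie to the right in both pairs, at 0.47, 0.47, 0.37 and 0.27 over the group means, and ER folding, heat shock and ribosomal lists to the left, at -0.59, -0.43 and -0.22.

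The season before, when weedy plots held flax at about 600 plants per square metre and controls had glyphosate, gave other values for several of these groups. For 2010 precipitation was given as 19.4 cm, temperature as 25.6 °C and the sampling date as June 22. Photosystem and antenna genes had a median of -0.26 in 2010 against 0.47 in 2011, Calvin cycle genes -0.33 against 0.47, and growth-regulating factors 0.35 against -0.50. Chaperones lay below 0 in both seasons: heat shock genes had medians of -0.37 and -0.43, and ER folding genes -0.15 and -0.59. Protease and polygalacturonase inhibitors had a median of 0.11 in 2010, and the Kunitz inhibitors among them -0.46, of the same sign as the -0.85 of 2011.

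The difference between the seasons was tested gene by gene in the same fit. Of 30433 genes 0 passed an adjusted p of 0.05 (limma), the smallest adjusted p was 0.279, and 4181 (13.7%) had an unadjusted p under 0.05. Leaving out the 76 cm weedy library of 2010 gave 273 genes past the threshold, so this count depended on that library. Of the 134 photosystem genes 90 had an unadjusted p under 0.05 for the difference, and of the 173 heat shock genes 26. FSD1 (Glyma20g33880) was 1.66 lower in weedy leaves in 2010 and 1.99 higher in 2011, a difference of 3.65 ± 0.53 (adjusted p 0.279, limma). The Kunitz gene Glyma09g29360 and PGIP1 (Glyma15g26790) differed by -0.46 and -0.19 in 2010, against -2.79 and -2.42 in 2011. Of the 53 genes higher by 1 in 2011, 35 were lower in weedy leaves in 2010, and of the 42 lower by 1, 16 were higher in 2010. The 2010 median over all genes was 0.01, so the signs of all genes split about evenly, and these counts are not read as a reversal.

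**Figure D5:**
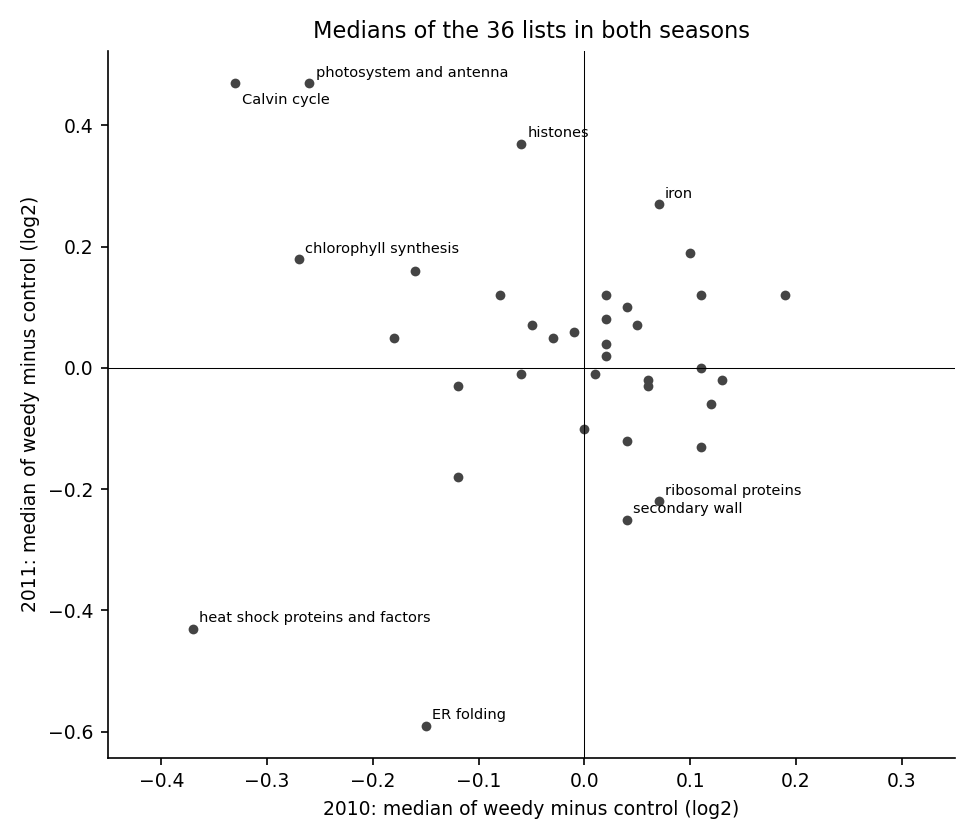
Median of weedy minus control (log2) over the members of each of 36 lists in 2010 (horizontal axis) and in 2011 (vertical axis). Heat shock and ER folding lists lie at negative values on both axes, and photosystem and Calvin cycle lists at -0.26 and -0.33 in 2010 and 0.47 in 2011.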

How the data were processed

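RNA of field plots (4 of 2011, and 4 of 2010 in the fit) was made into TruSeq libraries and read from both ends on a HiSeq2000 instrument, per the labels. The authors deposited 1 table of log2 FPKM values per gene and library, annotated with Phytozome gene models per the file headers; TopHat, Cufflinks and Cuffdiff, each as version 1.0, are named in the submitters' processing notes. The genome build and the strand are not given in the sources used here. All 12 libraries hold 1 identical set of values, so the deposited values are on 1 common distribution; the sources used here name neither the scaling step nor any constant added ahead of taking logs. The deposited ratio, p-value and q-value columns were not used.

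Of 30498 entries, 39 sharing 19 identifiers were left out. Genes with a log2 of at least 1 in at least 2 of the 8 libraries of 2010 and 2011 were tested, which removed 26 of 30459. Differences were fitted with limma 3.58.1 (eBayes, trend and robust, statmod 1.5.0, R 4.3.3) on group means of those 8 libraries, with two-sided p-values adjusted by Benjamini-Hochberg. Lists were joined through the table's Arabidopsis loci (29835 genes) and descriptions. The script was tested on simulated data. The named genes are, per direction, the 12 with the lowest p whose groups do not overlap and whose higher group reaches a log2 of 2, since 0 genes passed, and the 2 of smallest p in each list (4 for herbicide targets). Lists, rules and tests were chosen with earlier results of these data known. Alternatives were the 2011 libraries alone, a replicate block, other filters, log2(value + 1), eBayes without trend, other gaps, each spacing alone and each library left out.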

Additional observations from a re-analysis of the deposited data

Results flagged for a closer look

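For 7 lists the median of weedy minus control had 1 sign in both row spacings of 2011 and the opposite sign in both of 2010, and this difference between seasons was not tested for a list. In 2011 the medians were 0.47 for photosystem and antenna genes, 0.47 for the Calvin cycle, 0.37 for histones, 0.16 for antioxidant enzymes, 0.12 for herbicide targets, -0.06 for WRKY factors and -0.03 for the cell cycle. In 2010 they were -0.26, -0.33, -0.06, -0.16, -0.08, 0.12 and 0.06 in the same order. The last lists differ from the median of all genes, -0.02 in 2011 and 0.01 in 2010, by little. The seasons also differed in weed species and density, herbicide, precipitation, temperature and sampling date, which cannot be told apart.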

How the results depend on the processing

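No gene passed an adjusted p of 0.05 for weedy against control under any of the 14 alternative fits, and the smallest adjusted p ran from 0.0580 without the 76 cm control to 0.536 without the 18 cm weedy library. With the replicate number as a block, 0 genes were higher and 0 lower, with 1775 and 1359 at an unadjusted p under 0.05; same-numbered plots deviated together with a correlation of 0.048 in 2011 and -0.048 in 2010, and the numbers were not taken as pairs. The 2011 libraries alone gave 2231 and 2133 at that unadjusted p. All 1204 values of the 87 named genes kept their direction. That was fixed in advance, since their groups did not overlap and no alternative could then reverse a sign. The count for the difference between seasons was 0, except 0 to 273 when 1 library was left out; the cause was not tested. Genes apart numbered 431 higher and 359 lower at a gap of 0.5, 3 and 1 at a gap of 2, and 32 and 24 after log2(value + 1); leaving out 1 library gave 95 to 228 higher and 84 to 290 lower, since fewer libraries must stand apart, an alternative chosen after seeing the data. List members apart by 0.5 then numbered 17 to 63 (photosystem), 7 to 15 (Calvin cycle), 10 to 19 (clock), 9 to 14 (lipid transfer) and 43 to 69 (heat shock, against 34 with all libraries).

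Of 324 list medians under alternatives 69 moved by more than the spread between libraries, and the cause was not tested. In the 18 cm pair alone these were light and shade 0.14, clock 0.28, auxin 0.03, gibberellin -0.17, cytokinin -0.16, photosystem 0.72, Calvin cycle 0.74, chlorophyll 0.37, sugar 0.10, heat shock -0.13, ER folding -0.47, wax 0.02, lipid transfer 0.06, wall extension -0.16, cell cycle -0.04, ribosomal -0.34, leaf growth -0.08, glycosyltransferases 0.05, aquaporins -0.08 and herbicide targets 0.03. In the 76 cm pair alone they were clock -0.08, pathogenesis-related 0.23, abscisate -0.03, photosystem 0.25, chlorophyll -0.05, nitrogen -0.14, sugar -0.10, DnaJ -0.07, ER folding -0.54, phenylpropanoid 0.19, lipid transfer 0.32, P450 0.15, antioxidant 0.06 and iron 0.34. With a mean log2 of at least 2 they were auxin -0.04, gibberellin -0.11, jasmonate -0.14, WRKY 0.01 and secondary wall -0.59, and with log2(value + 1) jasmonate -0.14. Leaving out 1 library moved auxin between 0.00 and 0.02, gibberellin -0.16 and 0.07, cytokinin -0.16 and -0.10, ethylene -0.02 and 0.11, jasmonate -0.18 and -0.15, inhibitors -0.35 and -0.07, pathogenesis-related 0.03 and 0.28, WRKY -0.12 and 0.01, abscisate -0.01 and 0.04, heat shock -0.46 and -0.24, DnaJ -0.06 and -0.01, ER folding -0.65 and -0.53, phenylpropanoid 0.02 and 0.18, wax 0.04 and 0.19, wall extension -0.14 and 0.09, cell cycle -0.03 and -0.02, ribosomal -0.32 and -0.17, leaf growth -0.07 and 0.01, glycosyltransferases 0.02 and 0.15, antioxidant 0.08 and 0.16, aquaporins -0.09 and 0.11, and herbicide targets 0.06 and 0.14. Depth is unknown, 2 libraries per group limit every call, and on the common scale rank alone sets a value.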

Other observations

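The gene with the largest difference of all, Glyma15g06270, has no name or description in the deposited table. It stood at 4.82 and 4.87 in the 76 cm and 18 cm controls and at 8.37 and 9.51 in the weedy libraries, 17.1-fold higher, while in 2010 it was 1.56 lower in weedy leaves. The difference was 4.09 ± 1.01 (adjusted p 0.236, limma). Of the 53 genes higher by at least 1, 13 carry no description, and of the 42 lower ones 6. The largest difference downward was also in such a gene, Glyma13g25150, at 4.20 and 5.44 against 2.69 and 1.14, and another, Glyma07g31300, stood at 4.66 and 5.50 against 2.73 and 2.20.

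Germin-like proteins of the cell wall held a pair of abundant genes on the higher side. Glyma07g04310 stood at 5.44 and 4.71 in controls and 6.66 and 7.45 in weedy leaves, and Glyma16g00980 at 7.13 and 6.70 against 8.27 and 8.87, whereas the 25 germin genes together had a median of 0.01. Among 14 proteins of the unknown family DUF604, 2 were higher by at least 1, Glyma11g02440 at 2.75 and 2.19 against 4.68 and 5.24 and Glyma01g43050 at 2.06 and 1.72 against 3.14 and 3.31. A pair of alpha/beta-hydrolases, Glyma02g16020 and Glyma02g16040, were lower, the first at 4.75 and 5.78 against 3.63 and 3.36. A granulin-repeat cysteine protease, Glyma08g12340, stood at 8.14 and 7.96 against 6.71 and 5.42, and the ascorbate oxidase gene Glyma14g04530 at 8.34 and 8.16 against 7.02 and 6.66.

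Of 47 aquaporins 4 were higher (8.51%, against 1.42% of all genes) and 1 lower (2.13%, against 1.18%) by at least 0.5. The PIP1;4 copies of smallest p differed in direction: Glyma01g42950 stood at 6.13 and 5.99 against 5.42 and 5.27, and Glyma11g35030 at 1.54 and 1.67 against 2.81 and 2.43. Of 77 phenylpropanoid and flavonoid genes 2 were higher by at least 0.5, among them the chalcone synthase TT4 (Glyma19g27930) at 7.32 in both controls and 8.66 and 8.00 in weedy leaves.

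Among the other genes of lowest p, none of which passed the test (limma, adjusted p = 0.180 for each), 3 had higher values in the weedy libraries. The log2 value of an acyl-CoA N-acyltransferase gene, Glyma08g26160, was 2.92 and 3.19 in the control libraries against 4.01 and 4.31 in the weedy ones. The weedy minus control difference was 1.48 ± 0.20 (SE, n = 2 per group) for Glyma19g27440 and 1.07 ± 0.15 for Glyma11g08570, genes with no description in the deposited table. On the lower side, serine transhydroxymethyltransferase 1 (Glyma09g33480), an enzyme of photorespiration, was at 6.51 and 6.87 in the control libraries against 5.50 and 5.29 in the weedy ones. A bHLH transcription factor gene (Glyma05g38450) was at 3.04 and 3.27 against 2.09 and 2.05. Another gene named mtHSC70-2 (Glyma15g06530) was at 5.73 and 5.90 against 4.93 in both weedy libraries.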
